A study of Mus musculus with 4 samples.

Results

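The genes described here are those of the cytosolic ribosomal proteins, the proteins of the small (Rps) and large (Rpl) subunits of the ribosome that translates nuclear messages. They were chosen by name alone: the gene names in the array files that consist of Rpl or Rps and a number, with or without a further letter and digit, together with Rplp0, Rplp1, Rplp2 and Rpsa, without the Rps6k kinases. The rule took 84 of 31829 gene names, 32 of the small and 52 of the large subunit, on 176 of 39429 probes. Total RNA came from mouse 3D engineered muscle, a skeletal muscle tissue built in culture, and was hybridised to single-colour Agilent arrays. One group had received a 30 min acute EPS and was taken at 0 min after it, and its control at 0 min had received no EPS. Another group was taken at 5 h after the same 30 min EPS, and its control at 5 h had received no EPS. EPS, electrical pulse stimulation, is used to make cultured muscle contract. Each of the 4 groups is 1 array with no replicate, so no difference below has a test or a p-value, and the labels do not say how many tissues went into an array.

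Ribosomal protein genes are transcribed at high rates in growing cells, and their products are assembled with ribosomal RNA in nearly equal amounts. Their messages begin with a C followed by a run of pyrimidines, the terminal oligopyrimidine (TOP) motif, through which the kinase mTORC1 and the protein Larp1 control how much of a message is translated. Control of this kind acts on translation and stability, so the level of a message on an array is not a measure of ribosome production. In skeletal muscle, ribosome production is linked to growth after loading, which is why the genes are of interest beside a contraction stimulus.

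The start of several messages is shown because the TOP motif is what the family is known to share. The windows run from 15 bases before to 15 bases after the annotated start (RefSeq, GRCm38.p6), and the capitals mark the pyrimidine run that begins at that start. Rpl15 has the longest run of the genes with such a start and Rplp2 one of the shortest. Rpl15 lies at chr14:18270972-18271001 (minus strand), Rpl35 at chr2:39005117-39005146 (minus), Rps6 at chr4:86857353-86857382 (minus), Rps18 at chr17:33955651-33955680 (minus), Rps27 at chr3:90213634-90213663 (minus), Rpl38 at chr11:114668565-114668594 (plus) and Rplp2 at chr7:141447636-141447665 (plus).
Rpl15: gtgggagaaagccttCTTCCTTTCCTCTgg
Rpl35: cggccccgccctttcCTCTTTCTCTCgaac
Rps6: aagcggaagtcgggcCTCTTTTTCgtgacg
Rps18: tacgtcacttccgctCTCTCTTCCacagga
Rps27: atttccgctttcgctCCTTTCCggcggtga
Rpl38: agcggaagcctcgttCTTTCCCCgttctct
Rplp2: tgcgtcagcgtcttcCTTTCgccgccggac
A C at the annotated start followed by at least 4 C or T, read on the gene's strand only, was present in 13 of the 61 ribosomal protein genes with a window (21.3%) and in 813 of 27025 genes (3.01%). A looser search, which overlaps the first, asked for a C followed by 7 C or T anywhere from 10 bases before to 50 after the start. It matched 43 of the 61 genes (70.5%) and 5106 of all genes (18.9%). An annotated start can differ from the start used in this tissue by a few bases, and a match is a description of the letters only.

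The level of a gene is the log2 of the processed signal of its brightest probe minus the 75th percentile of the array, so a level of 0 is the signal of the probe at that percentile. The 75th percentile itself was 1015 for EPS at 0 min, 1268 for no EPS at 0 min, 1367 for EPS at 5 h and 1179 for no EPS at 5 h. A gene was measured where that probe was well above background on the arrays compared, by the flag of the scanner software. Probes printed 10 times gave a standard deviation between spots of 0.08 for a log2 difference (median over 267 to 273 probes), which covers the spots of 1 labelled RNA and not the spread between tissues. Of the skeletal muscle markers, 12 of 12 were well above background on all 4 arrays, as were 5 of 6 fibroblast, 3 of 7 leukocyte, 1 of 3 endothelial, 0 of 3 adipocyte and 2 of 4 neuron and Schwann cell markers. Of the leukocyte markers, Ptprc and Lyz2 were above background on no array. Cd3e and Cd68 were among the 3 above it on all 4, at levels of -1.97 and -4.92 for EPS at 0 min. The summed signal of the leukocyte markers, given below, is mostly that of the remaining one of these 3. That gene, not reported by name here, stood above the 75th percentile on all 4 arrays. The labelling protocol, which names leukocytes as the RNA source, goes against the titles and the tissue field. The summed signal of the muscle markers, in multiples of the 75th percentile, was 936 for EPS and 812 for no EPS at 0 min, and 705 for EPS and 761 for no EPS at 5 h. For the fibroblast markers, led by decorin (Dcn), it was 240.1 for EPS and 211.8 for no EPS at 0 min, and 185 for EPS and 207 for no EPS at 5 h. Both sums have the sign of the family's EPS differences below, but the fibroblast sum is carried by Dcn: the median EPS difference over its 5 measured markers was -0.05 at 0 min, with 3 of 5 below 0. The part of either list in the family's differences was not tested. For leukocyte markers the sum was 7.76 for EPS and 8.57 for no EPS at 0 min, and 6.49 for EPS and 7.28 for no EPS at 5 h.

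Of the 84 genes, 81 were measured on all 4 arrays, among 18072 gene names measured on all 4. Their probes were bright: 77 of the 81 had a mean level of at least 4 and 19 were among the 100 brightest, which describes probes and not amounts of message. The median level over the 81 genes was 6.64 for EPS at 0 min, 6.43 for no EPS at 0 min, 6.55 for EPS at 5 h and 6.61 for no EPS at 5 h. A gene's range over the 4 arrays had a median of 0.23, against 0.44 over all names measured on all 4. The narrowest range, 0.05, was that of Rpl3, which forms part of the peptidyl transferase region. Its level was 6.44 for EPS and 6.43 for no EPS at 0 min, and 6.40 for EPS and 6.45 for no EPS at 5 h. The next narrowest were Rpl15 (0.09) and Rps15a (0.11). The widest range, 0.66, was that of Rpl3l, its muscle paralog, followed by Rpl7l1 (0.51) and Rpl6 (0.44).

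The remaining 3 names were not measured throughout. Rpl10l and Rpl39l, paralogs of Rpl10 and Rpl39 known for expression in testis, were above background on no array. Rps4y2, which RefSeq lists as Rps4l, a transcribed pseudogene, was above background only without EPS at 0 min, at a level of -5.72. Its level was at least 1.31-fold lower for EPS than for no EPS at 0 min, and at least 1.36-fold lower at 5 h than at 0 min without EPS. These bounds are set against the dimmest probes still well above background and make no allowance for spot error.

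**Figure D1:**
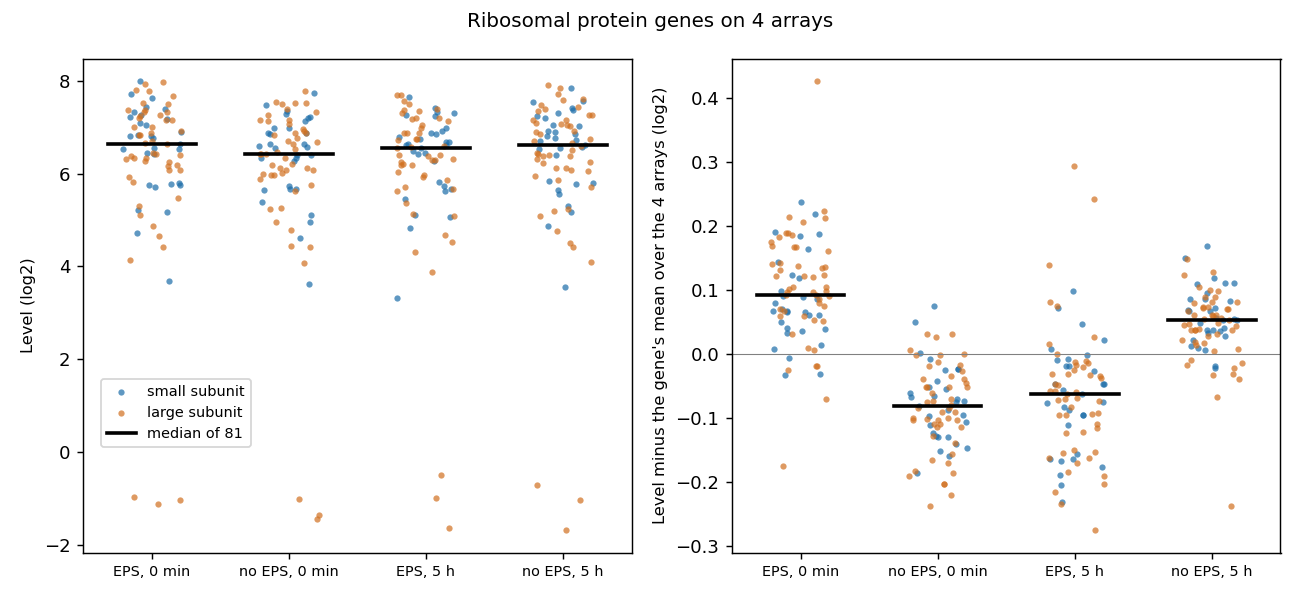
Levels of the 81 ribosomal protein genes on each array (left, log2) and the same levels minus each gene's mean over the 4 arrays (right, log2); points are genes and bars are medians over the 81. The medians on the left are 6.64, 6.43, 6.55 and 6.61, and both panels use 75th-percentile scaling. The median differences at 5 h and between times with EPS change sign under quantile normalization. They keep their sign under normexp, median centring (-0.02 and, between times with EPS, -0.003) and cyclic loess (-0.04 each).

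At 0 min, 80 of 81 ribosomal protein genes stood higher with EPS than without it, by a median log2 difference of 0.18, whereas after quantile normalization 45 stood higher and 36 lower and the median was 0.02. Over all 18553 measured genes, 55.1% stood above 0 and the median was 0.02. The differences were small. With a log2 difference of at least 0.32 as the size rule, 6 of 81 genes (7.41%) were higher past the rule, against 7.31% of all genes, and 0 were lower past it, against 9.59% of all genes. The upward share is therefore that of the background. Small-subunit genes had a median of 0.14 and large-subunit genes one of 0.19. On the unscaled intensities the order was the other way round, with a median signal of 101468 for EPS and 109209 for no EPS.

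The largest difference at 0 min was that of Rpl3l, at -1.02 for EPS and -1.44 for no EPS, a log2 difference of 0.43. Rpl37 had 7.92 for EPS and 7.55 for no EPS (0.37), and Rpl34 had 7.20 for EPS and 6.87 for no EPS (0.34). These genes kept a positive difference under each of the 5 scalings tried, and under quantile normalization it was 0.13 for Rpl37, 0.13 for Rpl34 and 0.46 for Rpl3l. Rpl38, also past the size rule and named after its values were seen, was at 7.16 for EPS and 6.84 for no EPS. At the low end were Rps29 (-0.01), Rpl22l1 (0.01), Rpl3 (0.01), Rps25 (0.02) and Rpl7l1 (0.05). After quantile normalization 4 of these were below 0, Rps29 at -0.17, Rpl3 at -0.14, Rps25 at -0.11 and Rpl22l1 at -0.08.

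At 5 h, 74 of 81 genes stood lower with EPS than without it, by a median log2 difference of -0.12, but quantile normalization turned the direction, with 49 genes higher, 32 lower and a median of 0.04. Over all 18507 measured genes, 55.2% stood below 0 and the median was -0.03. Lower past the size rule were 4 of 81 (4.94%), against 11% of all genes, and 0 were higher past it, against 6.53%. Small-subunit genes had a median of -0.13 and large-subunit genes one of -0.11. The unscaled intensities again gave the other order, with a median signal of 127982 for EPS and 114845 for no EPS.

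Those past the size rule at 5 h were Rpl6, Rpl23, Rps24 and Rps12, all below 0. Rpl23 had a level of 6.56 for EPS and 6.92 for no EPS (-0.36). Rpl6 had 6.39 for EPS and 6.75 for no EPS (-0.36), Rps24 had 6.85 for EPS and 7.19 for no EPS (-0.35), and Rps12 had 6.97 for EPS and 7.31 for no EPS (-0.34). All 4 stayed below 0 under each scaling, with values after quantile normalization between -0.22 and -0.16. Other probes of the same gene did not always follow. For Rpl6 the 4 probes ran between -0.36 and 0.09, and for Rpl23 the 3 probes ran between -0.36 and 0.15. The 3 probes of Rps24 lay between -0.35 and -0.24 and both of Rps12 at -0.34 and -0.27.

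A few genes went the other way at 5 h. Rpl13a, also in use as a reference gene, had a level of 5.38 for EPS and 5.10 for no EPS (0.28), and its second probe gave 0.11. Its difference lay between 0.28 and 0.38 under the 5 scalings. Rpl7l1, a nucleolar paralog of Rpl7, had -0.50 for EPS and -0.69 for no EPS (0.20). The others among the 5 highest were Rpl22l1 (0.10), Rpl21 (0.05) and Rpl3l (0.05), which lie near the standard deviation between spots. Under all 5 scalings alike, 28 of 81 genes (34.6%) stood lower with EPS at 5 h and 7 (8.64%) higher, where 36.0% of all measured genes were lower throughout and 36.7% higher throughout. At 0 min 44 of 81 (54.3%) were higher throughout and 0 lower throughout, against 44.8% and 27.8% of all measured genes.

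**Figure D2:**
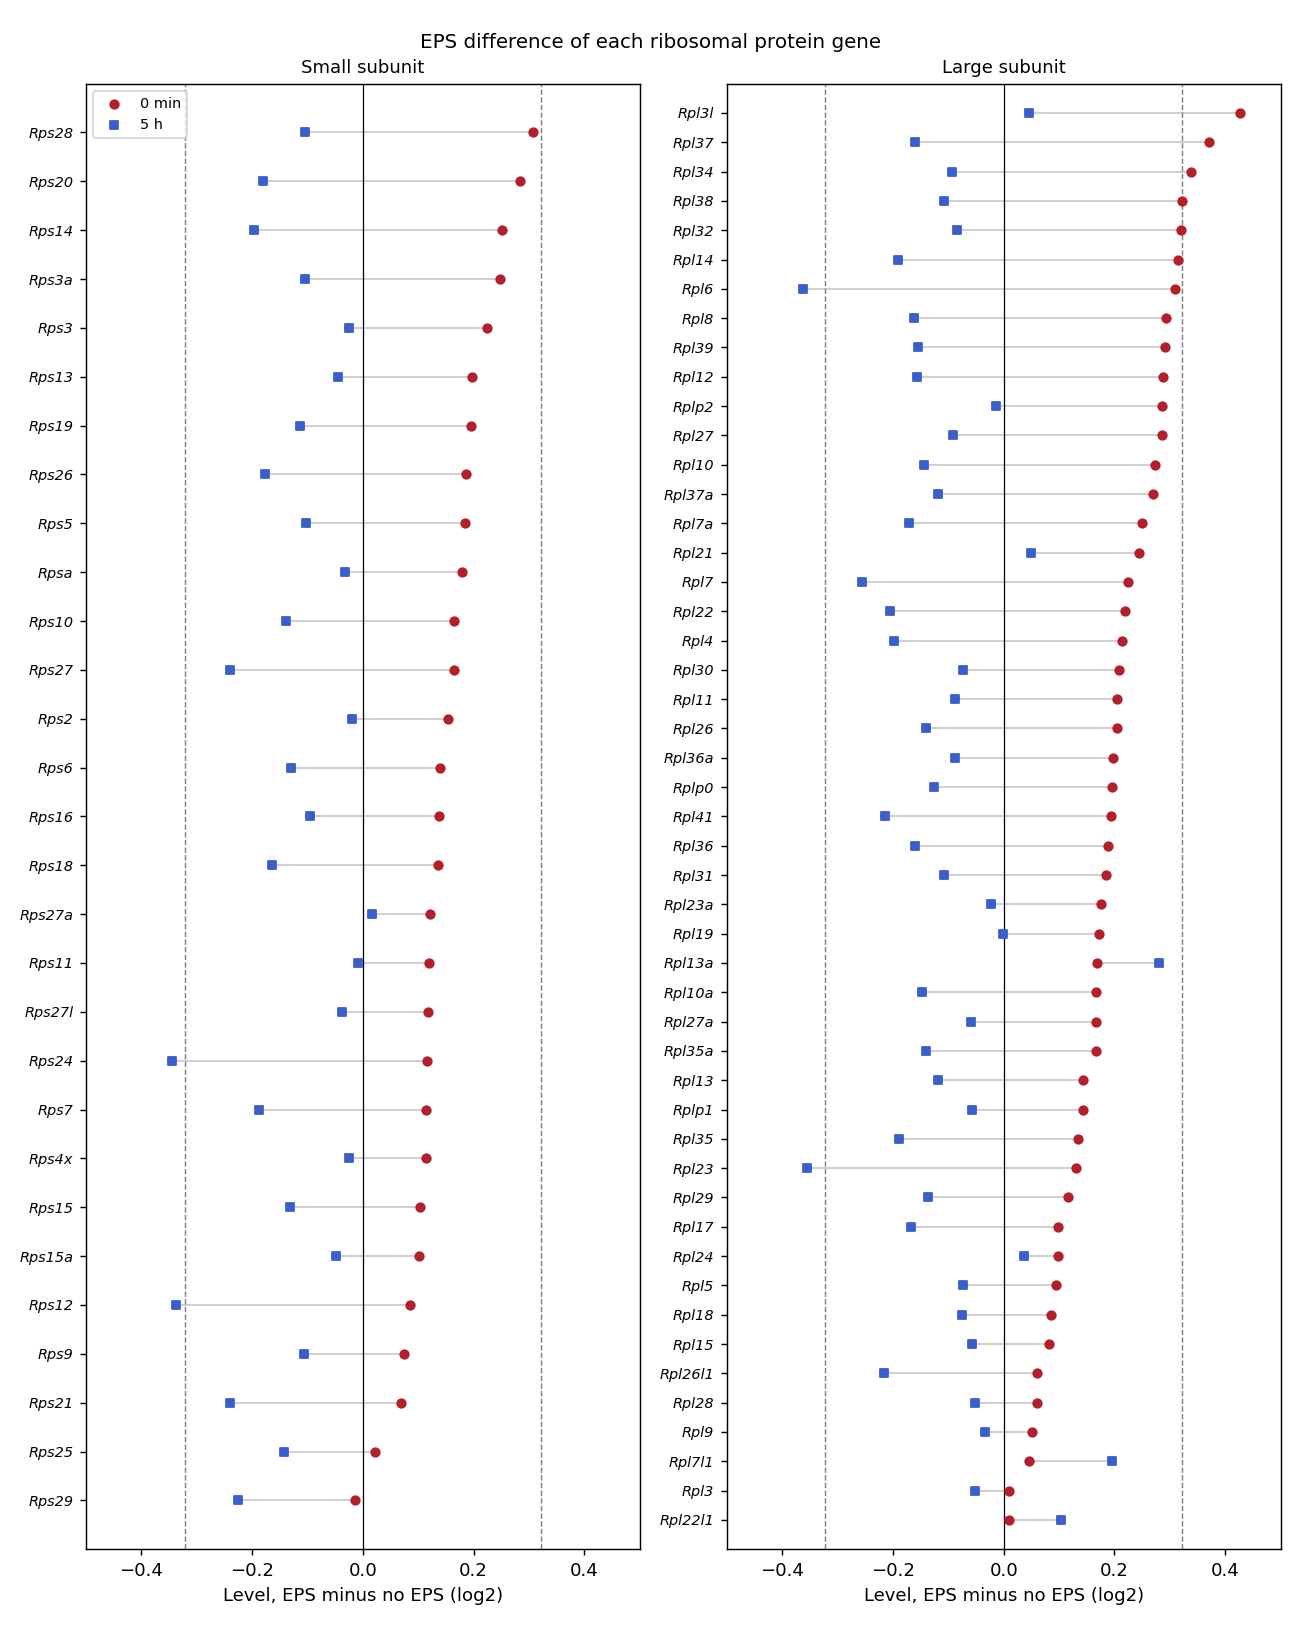
Log2 difference of level, EPS minus no EPS, for 78 of the 81 genes at 0 min (circles) and 5 h (squares), small subunit left and large subunit right; dashed lines mark the size rule of 0.32. With 75th-percentile scaling 77 circles lie above 0 and 71 squares below 0, and after quantile normalization 45 and, at 5 h, 32 of all 81 genes do.

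The EPS difference itself differed between the times. The difference at 5 h minus that at 0 min had a median of -0.30 over the 81 genes, 78 of them below 0. Over all 18072 genes measured on all 4 arrays the median was -0.04, with 10382 below 0 and 7690 above 0. The median of the 81 genes was 0.01 after quantile normalization and -0.08 after cyclic loess. With 75th-percentile scaling 73 of 81 genes lay above 0 at 0 min and below 0 at 5 h. The matching share of all genes was not counted. Of the named genes, the difference of differences was -0.67 for Rpl6, 0.15 for Rpl7l1 and 0.11 for Rpl13a, each at the brightest probe. For Rpl6 the EPS differences of the 4 probes ran between 0.09 and 0.33 at 0 min and between -0.36 and 0.09 at 5 h. Nothing in a design with 1 array per group tests the difference of differences.

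The size and sign of the family's difference moved with the brightness of the probes. Among probes with a mean level of 6 or more, 86 ribosomal protein probes had a median of 0.18 for EPS against no EPS at 0 min, and 426 other probes had one of 0.16, with 96.9% of these others above 0. At 5 h the ribosomal protein probes had a median of -0.13 and the other probes -0.16, of which 8.90% were above 0. Between levels of 4 and 6, the medians at 0 min were 0.11 for 56 ribosomal protein probes and 0.10 for 1327 others, and at 5 h they were -0.10 for ribosomal protein probes and -0.06 for others. Between 5 h and 0 min, the medians in the brightest band were -0.18 for ribosomal protein probes and -0.28 for others with EPS, and 0.13 for ribosomal protein probes and 0.08 for others without EPS. The medians of other bright probes thus had the family's sign in all 4 comparisons, and their sizes were closest to the family's for EPS at 0 min. Median centring in place of the 75th percentile moved the median of all genes by 0.17 in the comparison of times with EPS and by 0.12 in that without EPS. It gave family medians of 0.23 at 0 min and -0.02 at 5 h. The part of brightness in the family's differences was not tested.

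**Figure D3:**
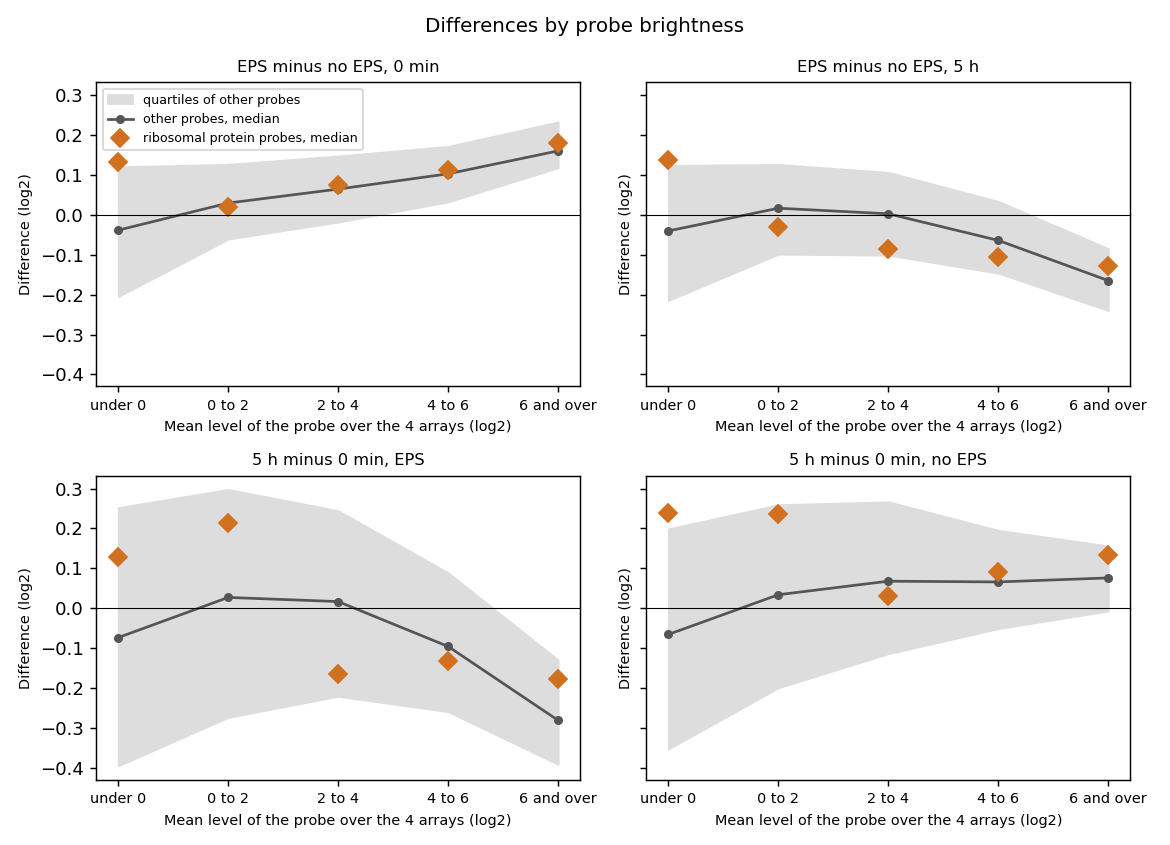
Median log2 difference of ribosomal protein probes (diamonds) and of all other probes (circles and line, with the range between quartiles shaded) in bands of the probe's mean level over the 4 arrays, one panel for each comparison. In the brightest band the medians for EPS minus no EPS are 0.18 and, for other probes, 0.16 at 0 min, and -0.13 and, for other probes, -0.16 at 5 h, with 75th-percentile scaling; quantile normalization gives family medians of 0.02 and 0.04.

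The comparisons of times share their arrays with the EPS comparisons and are not separate evidence. With EPS, 72 of 81 genes stood lower at 5 h than at 0 min, by a median of -0.17, where 55.8% of all genes stood below 0 with a median of -0.06; after quantile normalization 56 of the 81 stood higher, with a median of 0.08. Lower past the size rule were 14 of 81 (17.3%), against 27.1% of all genes, and 1 was higher past it, against 19.1%. Without EPS, 76 of 81 genes stood higher at 5 h than at 0 min, by a median of 0.13, where 49.3% of all genes stood above 0 with a median of -0.01; after quantile normalization 57 stood higher and the median was 0.04. Here 1 gene was higher past the size rule, against 17% of all genes, and 0 were lower past it, against 20.5%. In both comparisons of times the shares past the rule lie below those of all genes.

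The single gene past the size rule upward with EPS was Rpl7l1, at -0.50 for 5 h and -0.97 for 0 min (0.47), and without EPS it had -0.69 for 5 h and -1.01 for 0 min (0.32). Its differences between times stayed above 0 under every scaling, between 0.38 and 0.64 with EPS. The one past the rule without EPS was Rpl21, with a level of -1.03 at 5 h and -1.35 at 0 min (0.33). Downward with EPS the largest were Rpl3l (-0.62), Rpl6 (-0.44) and Rpl23 (-0.44), and at the brightest probe they stood below 0 under all 5 scalings. Across the probes of each gene, Rpl6 ran between -0.44 and 0.01 and Rpl23 between -0.44 and 0.19. Rpl13a (0.26) was the second highest with EPS, and it stood at 0.30 to 0.43 under the other scalings. Without EPS the lowest was again Rpl3l (-0.24), followed by Rpl24 and Rps21 (-0.07 each).

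Genes with particular roles followed the family. The acidic P-stalk proteins, which recruit elongation factors to the large subunit, are encoded by Rplp0, Rplp1 and Rplp2. Rplp0 had a level of 7.52 for EPS and 7.33 for no EPS at 0 min, and 7.35 for EPS and 7.47 for no EPS at 5 h. Rplp1 had differences of 0.14 at 0 min and -0.06 at 5 h, and Rplp2 of 0.29 and, at 5 h, -0.01. Rpl5 and Rpl11 bind the 5S rRNA and, when free of ribosomes, the p53 regulator Mdm2. Rpl5 had differences of 0.09 at 0 min and -0.07 at 5 h, and Rpl11 of 0.20 and, at 5 h, -0.09. Rps6, the substrate of S6 kinase, had 6.54 for EPS and 6.40 for no EPS at 0 min, and 6.41 for EPS and 6.54 for no EPS at 5 h. Rpsa, also known as the laminin receptor, had differences of 0.18 at 0 min and -0.03 at 5 h. Other probes of Rpsa and Rps6 did not always follow. The 4 probes of Rpsa ran between 0.03 and 0.18 at 0 min and between -0.45 and 0.13 at 5 h. The 3 probes of Rps6 ran between -0.04 and 0.14 at 0 min and between -0.13 and 0.07 at 5 h. After quantile normalization Rplp1, Rpl5 and Rps6 were slightly below 0 at 0 min (-0.04, -0.01 and -0.02), and Rplp0, Rplp1, Rplp2, Rpl11, Rpsa and Rps6 were at or above 0 at 5 h (0.10, 0.08, 0.15, 0.07, 0.14 and 0.00).

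Several of the genes are in use as reference genes. At 0 min the EPS difference was 0.32 for Rpl32, 0.29 for Rpl27, 0.28 for Rps20, 0.21 for Rpl4, 0.17 for Rpl19, 0.17 for Rpl13a and 0.14 for Rps18. For Rps29 it was -0.01 at the brightest probe and up to 0.19 at the others. At 5 h it was -0.23 for Rps29, -0.20 for Rpl4, -0.18 for Rps20, -0.17 for Rps18, -0.09 for Rpl27, -0.09 for Rpl32, -0.0019 for Rpl19 and 0.28 for Rpl13a. After quantile normalization the values at 0 min were 0.16 for Rpl32, 0.12 for Rpl27, 0.09 for Rps20, 0.02 for Rpl19 and -0.02 for Rps18, and at 5 h Rpl19, Rpl27 and Rpl32 stood above 0 (0.17, 0.07 and 0.05). Another percentile moves all these differences alike, whereas quantile normalization and cyclic loess do not. All probes of Rps29 are placed by the array design on chromosome 2, where RefSeq has the gene on chromosome 12, so they may share sequence with a copy elsewhere. The same holds for the brightest probes of Rpl12 and Rpl31, and the family is known for many processed pseudogenes.

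Genes with the strict oligopyrimidine start were compared with the others that have a window. Their median differences for EPS minus no EPS were 0.14 at 0 min and -0.14 at 5 h (13 genes). The 46 measured genes without it had medians of 0.18 at 0 min and -0.11 at 5 h. The signs of these medians are those of 75th-percentile scaling.

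Between times with EPS, and with 75th-percentile scaling, Rpl22l1, Rpl7l1 and Rps27l went opposite ways to their partners, as given below. Rpl3l and Rpl3 did not (-0.62 and, for Rpl3, -0.04), nor did Rpl26l1 and Rpl26 (-0.26 and, for Rpl26, -0.15). Rpl3l replaces Rpl3 in part of the ribosomes of adult skeletal muscle and heart in mice. Its level was -1.02 for EPS and -1.44 for no EPS at 0 min, and -1.63 for EPS and -1.68 for no EPS at 5 h. It was highest on the array of EPS at 0 min and lower at 5 h in both groups, while Rpl3 kept within 0.05 on the 4 arrays with 75th-percentile scaling (its difference between times with EPS was -0.04, and 0.16 after quantile normalization). In the EPS comparison Rpl3l differed by 0.43 at 0 min (0.36 to 0.48 under the 5 scalings) and by 0.05 at 5 h. The probes for both genes overlap in 27 aligned bases, of which 7 differ, and the sequences are shown for comparison of the paralogs. The probe for Rpl3l lies within chr17:24872413-24872681 (plus strand) and that for Rpl3 within chr15:79908489-79908772 (minus strand), on build mm9 as the array design gives them, and capitals mark the differing bases.
Rpl3l: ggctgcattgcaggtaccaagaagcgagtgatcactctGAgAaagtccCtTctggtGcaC
Rpl3: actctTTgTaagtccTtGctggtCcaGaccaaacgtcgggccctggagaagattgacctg
The aligned stretch is the 3′ end of the first and the 5′ end of the second, and how far either 60-base probe matches the other gene's message was not tested.

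Rpl22l1, which in mice is repressed by Rpl22, had levels of 4.42 for EPS and 4.41 for no EPS at 0 min, and 4.53 for EPS and 4.43 for no EPS at 5 h. Rpl22 had 6.18 for EPS and 5.96 for no EPS at 0 min, and 5.85 for EPS and 6.06 for no EPS at 5 h. At 5 h with EPS, Rpl22l1 was thus at its highest and Rpl22 at its lowest. The difference between times with EPS was 0.11 for Rpl22l1 and -0.33 for Rpl22, and these signs held under all 5 scalings. Rpl7l1 and Rpl7 also parted over time with EPS (0.47 and, for Rpl7, -0.39), as did Rps27l, a p53 target, and Rps27 (0.11 and, for Rps27, -0.37). Rpl26l1 and Rpl26 both stood below 0 at 5 h (-0.22 and, for Rpl26, -0.14). The probe of Rpl26l1 matched no RefSeq gene by accession or by name, and whether it measures a gene apart from Rpl26 was not tested. Rps4x, the X-linked S4 gene, differed by 0.11 at 0 min and -0.03 at 5 h. Rpl10 differed by 0.27 at 0 min and -0.14 at 5 h, and Rpl39 by 0.29 and, at 5 h, -0.15.

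**Figure D4:**
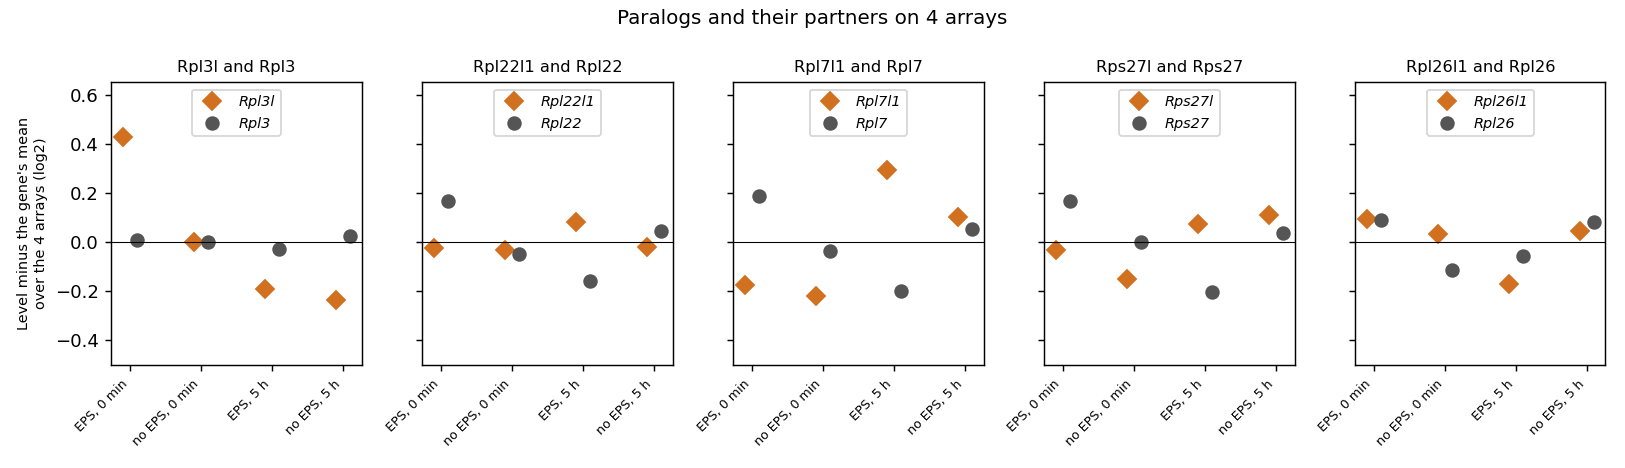
Level of each paralog (diamonds) and its partner (circles) minus the gene's own mean over the 4 arrays (log2), for the 5 pairs measured on all arrays. Rpl3l is highest for EPS at 0 min and Rpl3 stays within 0.05; Rpl7l1 is highest for EPS at 5 h, where Rpl7 is lowest. Levels are scaled by the 75th percentile. The probe of Rpl26l1 matched no RefSeq gene.

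Different probes of 1 gene gave a further view of the error. Of 171 ribosomal protein probes measured on all arrays, 164 were above 0 at 0 min and 139 below 0 at 5 h with 75th-percentile scaling. Among 53 genes with at least 2 measured probes, all probes shared a sign in 47 genes at 0 min and in 33 at 5 h. The 16 probes with a mean level under 2, from 15 genes, had medians of 0.12 at 0 min and 0.11 at 5 h for EPS minus no EPS, and the 155 brighter ones 0.15 and, at 5 h, -0.11. The dim probes thus did not share the downward difference at 5 h. The array files do not say whether the dim probes match other transcripts of the gene.

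The brightest probe of Rplp0 and the next brightest share 53 aligned bases, of which 5 differ. They are shown as an example of probes named for 1 gene that overlap and are not identical in the aligned bases. The array design places them at chr5:116013404-116013463 and chr5:116013397-116013456 (mm9, plus strand), and the differing bases are in capitals. Both probes cannot match the same sequence there in full, and which of them does was not tested.
Rplp0 brightest: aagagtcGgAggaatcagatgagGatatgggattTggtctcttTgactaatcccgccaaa
Rplp0 next: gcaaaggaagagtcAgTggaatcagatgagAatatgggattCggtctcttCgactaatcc
For EPS minus no EPS the first gave 0.20 at 0 min and -0.13 at 5 h, and the second 0.13 and, at 5 h, -0.01. The gaps between the probes are close to the standard deviation between spots.

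Genes of the machinery that builds ribosomes had larger median upward differences over time than the ribosomal proteins. With 75th-percentile scaling both medians were above 0 without EPS, and with EPS only that of the assembly genes was. Of 99 ribosome assembly genes, 85 (85.9%) were higher past the size rule of 0.32 at 5 h than at 0 min with EPS, against 19.1% of all genes, and 83 (83.8%) without it, against 17% of all genes, with median differences of 0.62 and, without EPS, 0.57. Under the 5 scalings these medians lay between 0.58 and 0.79 with EPS and between 0.53 and 0.70 without EPS. The EPS difference of the list had a median of 0.12 at 0 min and 0.18 at 5 h, and after quantile normalization 0.08 at 0 min and 0.16 at 5 h. Past the rule upward were 11 of 99 genes (11.1%) at 0 min, against 7.31% of all genes, and 5 (5.05%) at 5 h, against 6.53%. Ppan, a large-subunit assembly factor, had a level of 2.96 for EPS and 2.48 for no EPS at 0 min, and 3.75 for EPS and 3.48 for no EPS at 5 h. Zfp593 differed by 0.55 with EPS at 0 min, and Noc2l by 0.40 and Utp18, of the small-subunit processome, by 0.44 at 5 h. Utp18 was dim, at -4.52 for EPS and -4.96 for no EPS at 5 h. Fewer cells of a type and less RNA per cell cannot be told apart in such bulk samples.

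**Figure D5:**
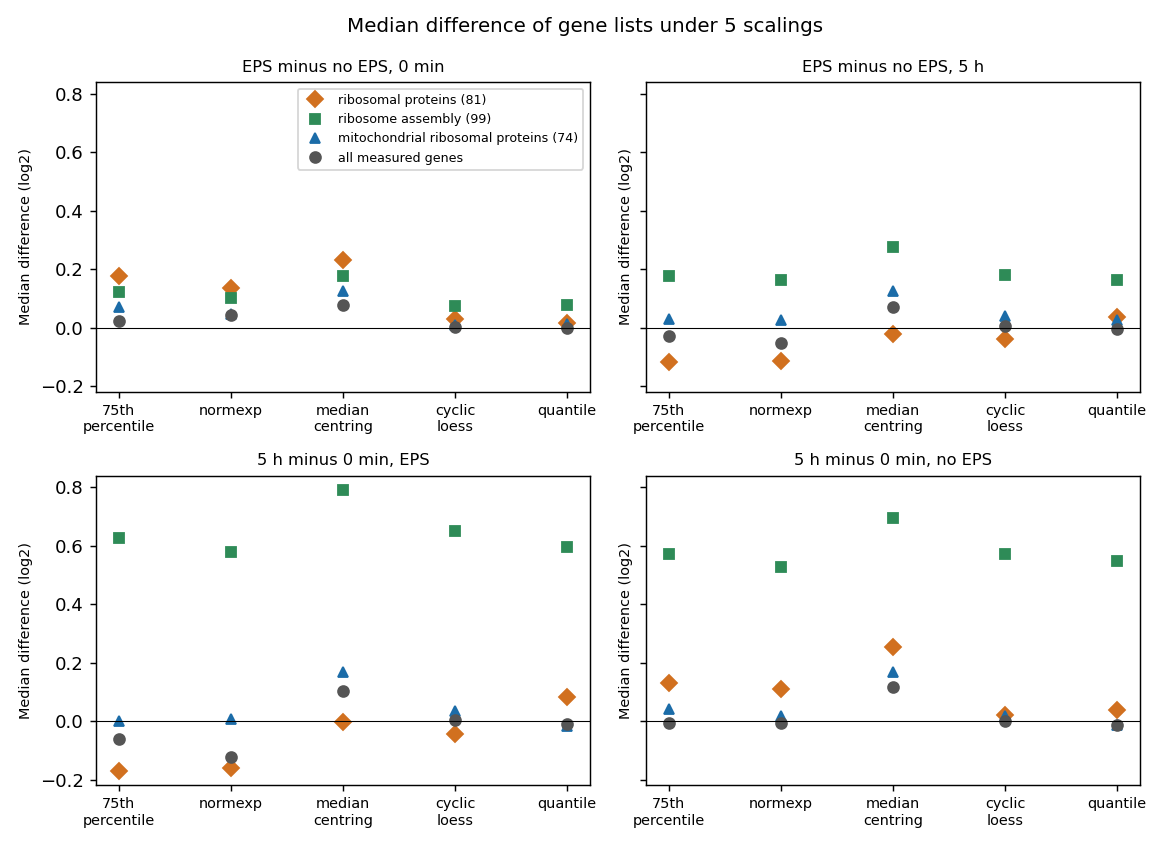
Median log2 difference of the ribosomal proteins, ribosome assembly genes, mitochondrial ribosomal proteins and all measured genes in 4 comparisons under 5 scalings of the same arrays. Ribosome assembly genes stay between 0.53 and 0.79 in both comparisons of times, whereas the ribosomal proteins lie on both sides of 0 in the EPS comparison at 5 h and in the comparison of times with EPS.

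Genes of RNA polymerase I and pre-rRNA transcription had medians of 0.41 with EPS and 0.43 without EPS between 5 h and 0 min, with 10 of 17 measured genes (58.8%) higher past the rule in each, against 19.1% of all genes with EPS and 17% without EPS. Their EPS differences were 0.15 at 0 min and 0.13 at 5 h. Myc, a transcription factor that drives ribosome production, had a level of 2.01 for EPS and 1.43 for no EPS at 0 min, and 2.03 for EPS and 1.57 for no EPS at 5 h. Its EPS difference was thus 0.58 at 0 min and 0.46 at 5 h. Taf1c, a subunit of the polymerase I selectivity factor, differed by 0.44 at 0 min, and Polr1b, the second largest polymerase I subunit, by 0.45 at 5 h.

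Initiation factors had EPS medians of 0.11 at 0 min and 0.10 at 5 h (39 genes), and after quantile normalization 0.05 at 0 min and 0.12 at 5 h. At 5 h against 0 min, 17 (43.6%) with EPS and 16 (41.0%) without EPS were higher past the rule, against 19.1% of all genes with EPS and 17% without EPS. Eif4a1, the helicase of the cap-binding complex, had a level of 5.73 for EPS and 5.31 for no EPS at 0 min (0.42). Eif4e2 differed by 0.41 at 0 min, and at 5 h Eif5b differed by 0.38 and Eif2b3 by 0.31. Eif5b was dim, at -4.18 for EPS and -4.56 for no EPS at 5 h. The list of elongation factors, which also holds the kinase gene Eef2k, had EPS medians of 0.19 at 0 min and 0.05 at 5 h (10 genes). Quantile normalization reversed this order, with 0.07 at 0 min and 0.12 at 5 h. Among the listed genes Eef1a2, the form of adult muscle and neurons, had a level of -2.88 for EPS and -3.53 for no EPS at 0 min. Eef1a1, the widely expressed form with a TOP message, had 5.97 for EPS and 5.60 for no EPS at 0 min, and at 5 h Eef1e1 differed by 0.27 and Eef2k by -0.26. Release and recycling factors had EPS medians of 0.16 at both times (7 genes), and Denr, which takes part in recycling and reinitiation, had 2.09 for EPS and 1.53 for no EPS at 5 h, while Pelo and Etf1 differed by 0.25 and 0.21 at 0 min.

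Other messages with a TOP start (13 genes) had EPS medians of 0.13 at 0 min and -0.05 at 5 h, which were -0.003 at 0 min and 0.00 at 5 h after quantile normalization. Gnb2l1, which encodes the small-subunit protein RACK1 and is not taken by the name rule, had a level of 7.22 for EPS and 6.99 for no EPS at 0 min, and 6.74 for EPS and 7.08 for no EPS at 5 h. Gas5, a noncoding TOP transcript that hosts small nucleolar RNAs, had 0.61 for EPS and 1.38 for no EPS at 0 min, a difference of -0.77, and 1.77 for EPS and 1.81 for no EPS at 5 h. Snhg1, another host transcript, differed by 0.37 at 5 h. Genes of mTOR control had EPS medians of 0.04 at both times (24 genes). Sesn1, a sestrin that restrains mTORC1, differed by -0.53 at 0 min and Sesn2 by 0.64 at 5 h. Of the RSK genes Rps6ka1 differed by 0.70 at 0 min and 0.05 at 5 h. Rps6ka2 differed by -0.31 at 0 min and 0.49 at 5 h, at dim levels between -4.47 and -3.20. Proteins of the mitochondrial ribosome, which has its own set of subunits, had EPS medians of 0.07 at 0 min and 0.03 at 5 h (74 genes), of which the first was 0.01 after quantile normalization. At each time 1 of them (1.35%) was higher past the rule, against 7.31% of all genes at 0 min and 6.53% at 5 h. Mrpl14 differed by 0.32 at 0 min and -0.29 at 5 h, Mrpl43 by 0.25 at 0 min and Mrpl15 by 0.33 at 5 h.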

How the data were processed

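Each of 4 arrays (1 slide) held the RNA of 1 group. Per the file headers, the authors' scanner output (Feature Extraction 10.7.3.1) gives each spot an intensity with background subtracted and spatial trends removed; the deposited value table held the same intensities for all 44397 spots of each array. Of the 43020 spots that are not controls, 112 to 141 flagged as outliers were left out, and 0 spots were saturated.

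Here spots of a probe were averaged on the log2 scale, the array's 75th percentile was subtracted, and a gene was read from its brightest probe. With 1 array per group no test was run; counts used a size rule of 0.32 (log2). The members, lists and rules were chosen with earlier results of these data known. Named are genes with set roles, paralogs, common reference genes, the 5 largest differences in each direction in each EPS comparison and the 3 in each comparison of times, the 3 widest and 3 narrowest ranges, the genes not measured throughout, and in each list the 2 with the largest EPS differences; a few genes are not reported by name here.

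Alternatives were normexp (offset 50), quantile and cyclic loess normalization, median centring, no filter on dim probes, the mean of a gene's probes, flagged spots kept, the deposited table, other member lists, and 1.5-fold and 2-fold rules. Tools were R 4.3.3, limma 3.58.1, Python 3.11.15, pandas 2.3.3 and numpy 2.4.6. The counting of shifted genes was tested on simulated data. Arrays give no counts, so the number of arrays limits the precision.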

Additional observations from a re-analysis of the deposited data

Results flagged for a closer look

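The EPS difference of the ribosomal protein genes at 5 h minus that at 0 min had a median of -0.30 (log2), with 78 of 81 genes below 0. The family's median stood above 0 at 0 min and below 0 at 5 h. Over all 18072 genes the median was -0.04, with 10382 below 0. Other probes with a mean level of 6 or more had EPS medians of 0.16 at 0 min and -0.16 at 5 h. With 1 array per group the family's difference was not tested. After quantile normalization the family's median of -0.30 became 0.01, and after cyclic loess normalization it was -0.08.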

How the results depend on the processing

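No paired analysis was possible because each group is 1 array. The E1A spike-in scaling was not run: 8 to 21 of 320 spike-in spots per array were well above background. Quantile normalization turned 3 medians of the family, to 0.038 for EPS at 5 h, 0.083 for 5 h against 0 min with EPS and 0.0052 for the difference of EPS effects; the others were 0.017 for EPS at 0 min and 0.039 for 5 h against 0 min without EPS. Cyclic loess normalization gave 0.029 for EPS at 0 min, -0.042 between times with EPS, 0.022 between times without EPS and -0.081 for the difference of EPS effects. Median centring gave -0.020 for EPS at 5 h, -0.0028 between times with EPS and 0.25 without. The cause was not tested. Counts of genes past the size rule upward for EPS at 0 min were 6 as reported, 1 under quantile and cyclic loess, 18 under median centring and 3 with the mean of probes. For EPS at 5 h, 1 gene was higher under quantile, cyclic loess and median centring, and 0 were lower under these and with the mean of probes. Between times with EPS, 5 genes were higher and 3 lower under quantile, 2 and 3 under cyclic loess, 2 and 1 under median centring, 7 were lower with the mean of probes and 0 were higher without paralogs. Between times without EPS, 2 genes were higher under quantile and cyclic loess and 18 under median centring. With no filter on dim probes 1 gene, Rps4y2, was lower for EPS at 0 min and 1 between times without EPS. At 1.5-fold 1 gene, Rpl3l, was left in the comparison of times with EPS, and 0 in every other count; at 2-fold 0 were left. The medians and counts moved by less than the set limits under normexp, with flagged spots kept, from the deposited table, with a longer member list and, an alternative chosen after seeing the data, with probes on the gene's own chromosome only. Of 90 values of named genes, 71 moved by more than the standard deviation between spots under quantile normalization, 52 under cyclic loess, 45 under median centring, 21 with the mean of probes and 3 under normexp; of those past the size rule, 0 changed sign. What limits these results is the single array per group and, for Rpl21, Rpl3l and Rpl7l1, signal below the 75th percentile. Some listed genes, among them Utp18, Eif5b and Rps6ka2, also lay below it.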
